A study of Mus musculus with 54 samples.

Results

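The genes described here were 8 immediate-early genes of the mouse: Egr1, Egr2, Egr3, Nr4a1, Nr4a2, Ier2, Ier3 and Ier5. They were taken by name from the 33126 genes listed in any library of the series, and their levels were followed across tissue dissociation, storage and isolation of nuclei. All 8 were listed in every bulk library and 6 in every 10x library, since Egr2 was listed in 21 of the 39 10x libraries and Egr3 in none.

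The study compared ways of preparing adult mouse kidney for RNA sequencing, with 39 10x and 15 bulk libraries in 18 groups of 3 biological replicates. Kidneys of C57BL/6J male mice aged 19 weeks were dissociated either on ice with the cold-active protease of Bacillus licheniformis ("cold") or at 37 °C with a commercial enzyme kit ("warm"). These suspensions were profiled in bulk, and by 10x as fresh cells, after 6 weeks of cryopreservation and after methanol fixation and storage. Kidneys of Balb/c male mice aged 18 weeks gave fresh cold-dissociated cells, nuclei sorted after 3 washes (3x500g) and bulk RNA of intact tissue. Kidneys of Balb/c female mice aged 15 weeks gave fresh cold-dissociated cells, cold-dissociated cells after 2 weeks of cryopreservation, nuclei by 3 protocols (3x500g, 1x2000g and a sucrose cushion without sorting), and bulk RNA of intact tissue and of cold suspensions. For every group of the C57BL/6J experiment, the study's methods name the males AFAPIL.1DEL C57BL/6J, from a single litter. They describe the Balb/c males as untreated littermates and the Balb/c females as untreated wild type former breeders. All groups except the intact tissue and the nuclei went through enzymatic dissociation. The 3 experiments were done at different times, in different strains or sexes and with different chemistry or RNA selection, so levels were compared only within each of them.

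Immediate-early genes are transcribed within minutes of a stimulus from factors already present in the cell, without new protein synthesis. Growth factors, calcium, cAMP, stress and wounding act on them through kinases, the MAP kinases among them. The targets include serum response factor with partners such as Elk at CArG boxes, and CREB at cAMP response elements. Egr1, Egr2 and Egr3 encode zinc finger transcription factors, Nr4a1 and Nr4a2 orphan nuclear receptors, and Ier2, Ier3 and Ier5 small proteins of the immediate-early response, of which Ier3 is also a target of NF-κB and acts in cell survival. In kidney they are known as early responders to ischemia and to tissue handling.

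Most of the genes were short. Their median span was 5287 bp against 17340.5 bp for 21992 protein-coding genes of GENCODE vM21 (GRCm38), and introns made up a median of 15.9% of the span against 79.5%. Ier2 (chr8:84661331-84662852) and Ier5 (chr1:155096361-155099636), both on the minus strand, had no annotated intron. Ier3 spanned 1240 bp (chr17:35821684-35822923, plus strand), Egr2 6714 bp (chr10:67535475-67542188) and Egr3 5412 bp (chr14:70077203-70082614). Nr4a1 (chr15:101254269-101274795, plus strand) and Nr4a2 (chr2:57106830-57124003, minus strand) were the longest at 20527 bp and 17174 bp, and no other annotated gene overlapped any of the 8.

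The sequences before the start of 3 members and 1 short stretch of Egr2 are shown because the members rose together and because their promoters differed in the letters of 2 known response elements. They come from a RefSeq promoter table of GRCm38.p6, from which windows of 5 of the 8 members were used, and are written 5′ to 3′ on the strand of the gene. The capitals mark TGACG, the half-site of the cAMP response element, on either strand, and in Egr2 also a CArG box.
Nr4a1, chr15:101266596-101266845, plus strand: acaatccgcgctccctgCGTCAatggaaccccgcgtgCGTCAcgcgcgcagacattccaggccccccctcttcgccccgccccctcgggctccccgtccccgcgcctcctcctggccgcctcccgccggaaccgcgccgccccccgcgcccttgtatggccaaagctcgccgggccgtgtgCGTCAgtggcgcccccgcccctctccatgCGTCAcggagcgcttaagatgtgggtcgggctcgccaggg
Nr4a2, chr2:57124004-57124253, minus strand: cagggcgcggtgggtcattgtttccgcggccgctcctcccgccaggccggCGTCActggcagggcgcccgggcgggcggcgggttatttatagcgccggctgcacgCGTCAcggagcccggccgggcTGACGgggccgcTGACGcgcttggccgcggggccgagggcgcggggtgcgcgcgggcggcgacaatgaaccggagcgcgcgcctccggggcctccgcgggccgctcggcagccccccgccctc
Ier3, chr17:35821463-35821683, plus strand: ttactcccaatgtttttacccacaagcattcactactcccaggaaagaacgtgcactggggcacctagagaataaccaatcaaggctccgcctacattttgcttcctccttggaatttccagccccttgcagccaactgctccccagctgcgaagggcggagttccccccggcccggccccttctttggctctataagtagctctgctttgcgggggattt
Egr2, chr10:67537797-67537818, plus strand: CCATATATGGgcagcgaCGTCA
The Nr4a1 window lay inside the span of the gene's longest annotated transcript but touched no annotated exon, and held 4 half-sites, the nearest from base -40 to base -36. The Nr4a2 window also held 4. Of all 32851 promoter windows searched on both strands, 17.8% held at least 1 half-site, 1.55% the full element TGACGTCA, 1.47% a CArG box and 0.536% the EGR site GCGTGGGCG. None of the windows of these 5 members held the full element or the EGR site, and the windows of Ier3 and Ier5 held none of the 4 motifs. The Egr2 stretch lay inside the annotated span of its gene, in windows of starts within it. The Egr2 window at the 5′ end of that span (chr10:67535249-67535498) held none of the 4 motifs. These are matches of letters only.

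Levels are given as CPM, which scales the counts of a library to a total of 1000000. In bulk RNA these are reads counted to genes. In the 10x libraries they are unique molecular identifiers (UMIs, 1 for each transcript molecule read) of non-mitochondrial genes, summed over all barcodes of a library or of a class. The bulk libraries held 5969212 to 8184923 counted reads in C57BL/6J, 2326998 to 7879117 in the Balb/c males and 21984996 to 31093949 in the Balb/c females, and the 10x libraries 983522 to 35170947 UMIs over 782 to 9308 barcodes. Per the study's methods a gene was kept in a 10x library where at least 10 cells had it. In 36 of the 39 libraries 289 to 6658 listed genes stood at 0 beside 4 to 718 genes with 1 to 9 UMIs, so low values had mostly, though not in every gene, been set to 0, and in the other 3 libraries no listed gene was at 0. A 0 for Egr1, Egr2, Nr4a1 or Nr4a2 is therefore not taken as a measured absence. Fold changes against these zeros depend on the model, and each is named where it occurs. Pairs of 10x libraries shared at most 2.05% of the barcodes of the smaller one.

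The first comparison set warm against cold dissociation over the transcriptome of the whole suspension. The protocols differ in enzyme, handling and spin speed as well as in temperature, and these cannot be told apart. In bulk RNA of C57BL/6J suspensions, 7 of the 8 members were higher after warm than after cold dissociation, and the eighth, Egr3, was too low to be tested. Egr1 had the largest fold change at 41.7, Nr4a1 and Ier2 rose 10.5-fold and 9.94-fold, and Ier5 had the smallest at 2.19. The median log2 fold change of the 7 was 3.10.

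Egr1, a transcription factor of the early growth response, stood at 4.76, 11.7 and 4.92 CPM in the cold suspensions and at 283, 218 and 380 CPM in the warm ones. The groups were far apart, the lowest warm library lying above every cold one (log2 fold change 5.38 ± 0.27 (SE), adjusted p = 9.15e-08, edgeR's quasi-likelihood test with Benjamini-Hochberg adjustment over 14102 genes). Egr2, which acts in myelination and in lymphocytes, was at 0.244, 0.335 and 1.11 CPM cold and at 3.89, 4.20 and 6.16 CPM warm (log2 fold change 3.07 ± 0.44, adjusted p = 0.00103). Its groups did not overlap either. Egr3 had 0, 0.503 and 0 CPM cold and 2.08, 0.723 and 0.938 CPM warm, with 3 reads over all cold libraries together.

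Both nuclear receptors rose. Nr4a1 (Nur77) was at 7.45, 9.88 and 9.53 CPM cold and at 96.7, 81.8 and 105 CPM warm, a 10.5-fold difference (log2 3.39 ± 0.13, adjusted p = 8.89e-09). Nr4a2 (Nurr1) was at 0.855, 0.838 and 0.794 CPM cold and at 10.3, 6.22 and 5.63 CPM warm, 8.59-fold (log2 3.10 ± 0.35, adjusted p = 0.000174). In both genes the 3 cold libraries lay within a narrow range and every warm library lay above it.

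The 3 Ier genes rose by different amounts. Ier2, a nuclear protein of the early growth factor response, went from 5.38, 7.37 and 5.88 CPM cold to 64.6, 55.6 and 66.2 CPM warm, 9.94-fold (log2 3.31 ± 0.13, adjusted p = 8.89e-09). Ier3 was at 14.7, 11.7 and 7.15 CPM cold and at 38.3, 31.7 and 63.4 CPM warm, 3.85-fold (log2 1.95 ± 0.26, adjusted p = 0.000685). Ier5, which acts with heat shock factor and phosphatase 2A, was at 13.3, 12.6 and 12.1 CPM cold and at 31.3, 28.4 and 25.2 CPM warm, 2.19-fold (log2 1.13 ± 0.11, adjusted p = 7.92e-05). The groups of all 3 genes were separate, with the widest spread in Ier3. Of all genes tested in these libraries 5.42% were called higher, and the 7 calls held in all 9 alternatives run, among them each library left out. In bulk samples fewer cells of a type and less RNA per cell cannot be told apart. Egr1, Ier2 and Ier3 also belong to a list of stress genes that the study chose on these samples. All members were chosen with earlier results of these data known. Their direction, and the counts of members called here and below, are therefore no independent evidence.

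**Figure D1:**
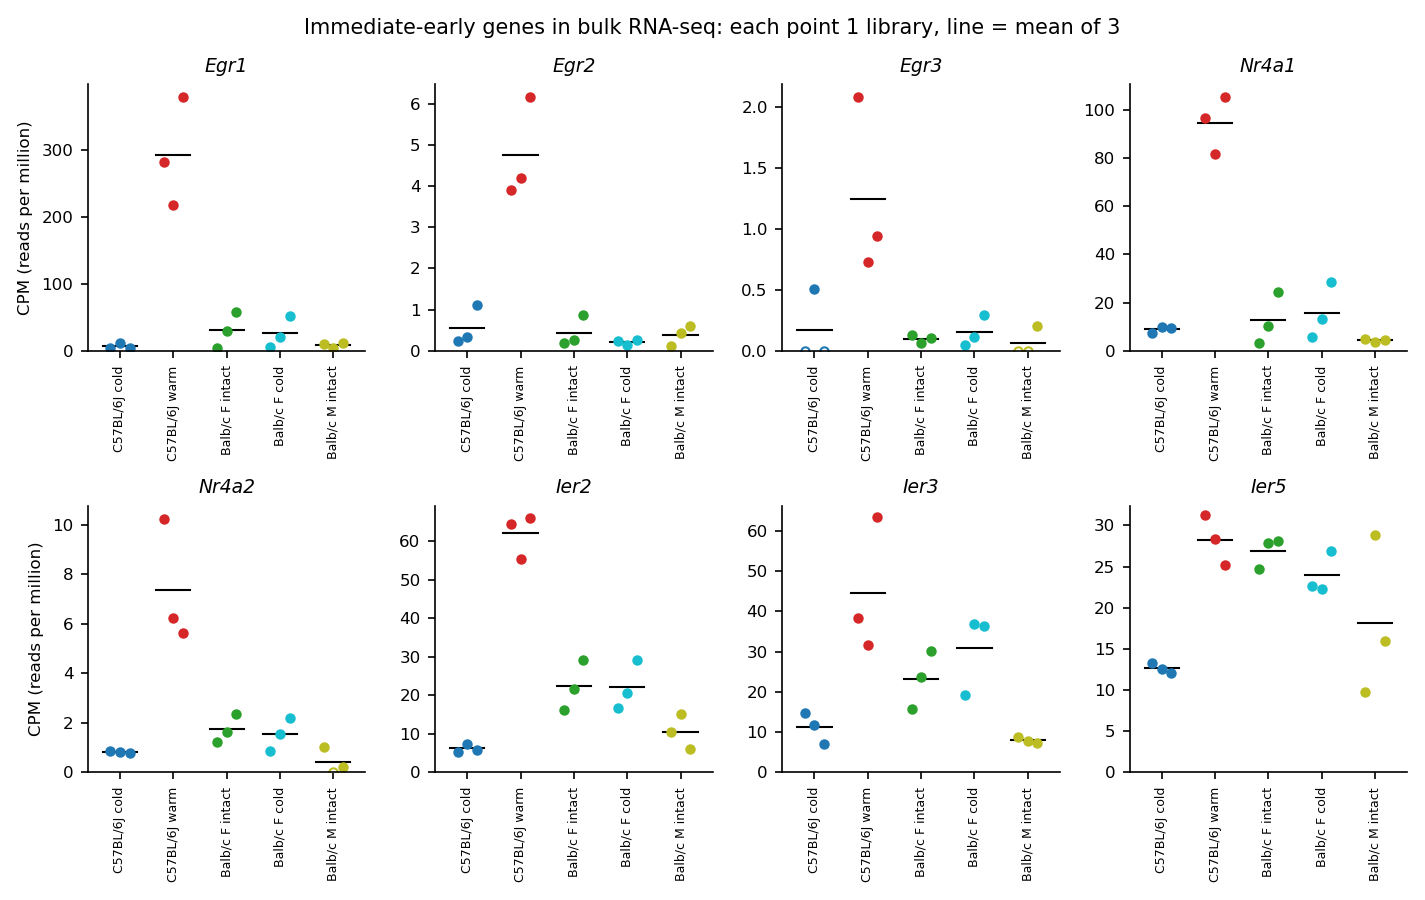
CPM (y axis, linear, from 0) of the 8 genes in the 5 bulk groups (x axis); each point is 1 library and the line the mean of 3. The warm C57BL/6J suspensions lie above the cold ones in every panel, for Egr1 at 218 to 380 CPM against 4.76 to 11.7 CPM, and the Balb/c female libraries (F) spread widely within both of their groups.

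Per length of transcript (RPKM, over the merged exons of each gene) the order of the genes differed between the suspensions. In the cold ones Ier3 was highest at a mean of 9.88 RPKM, ahead of Ier2 (4.08) and Ier5 (3.86), whose ranges overlapped, then Nr4a1 (2.55) and Egr1 (1.59), which also overlapped, and Nr4a2, Egr2 and Egr3 lay at 0.204, 0.166 and 0.038 RPKM, where Egr2 overlapped both others and those were separate. In the warm ones Egr1 was highest at a mean of 65.5 RPKM, though its range overlapped that of Ier3. Ier2 (40.8), Ier3 (39.3) and Nr4a1 (27.0) came next, where Ier3 overlapped both others and those were separate. Then came Ier5 (8.63), Nr4a2 (1.82) and Egr2 (1.40), of which Nr4a2 and Egr2 overlapped, and Egr3 (0.283 RPKM).

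Other genes of the response followed in the same libraries. All 34 other immediate-early genes that could be tested, of a list of 35, rose in the warm bulk suspensions, with a median log2 fold change of 2.29 against -0.01 over all genes, led by Fosb (9.04 ± 0.14) and Fos (7.53 ± 0.21), the partners of Jun in AP-1. Genes of this list, Fos and Fosb among them, also belong to the stress genes that the study chose on these samples. The list was also chosen with earlier results of these data known, so the direction of its genes is no independent evidence. Nr4a3, the remaining member of its receptor family, rose by 3.70 ± 0.51 on the log2 scale (adjusted p = 0.000783), and Ier5l, the paralog of Ier5, by 1.23 ± 0.26 (adjusted p = 0.0127). Of 17 upstream regulators (serum response factor and its partners, CREB, the MAP kinases and the Nab corepressors of Egr proteins), 1 rose and none fell: Srf, by 0.58 ± 0.11. Hemoglobin transcripts, a sign of red cells, moved the other way, with 3 of 4 genes lower (Hbb-bt by -0.91 ± 0.23), and their part in the values above was not tested.

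Bulk RNA of intact kidneys of Balb/c females was set against cold suspensions of the same strain and sex. None of the 6 members that could be tested was called (edgeR's quasi-likelihood test; 0 of 6 also at an unadjusted p under 0.05, and 0 of 6 with DESeq2), while 20.0% of 16538 genes were called in one direction or the other. The libraries of each group spread widely. The labels tie no intact kidney to a suspension, so the fit was unpaired, and the values say nothing of differences within a kidney. Egr1 was at 3.76, 29.3 and 58.5 CPM in the intact kidneys and at 5.19, 21.3 and 52.8 CPM in the suspensions, so the groups overlapped fully and the log2 fold change was -0.20 ± 0.83. Nr4a1, with 3.15, 10.3 and 24.5 CPM against 5.78, 13.2 and 28.4 CPM, gave 0.33 ± 0.65.

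The Ier genes spread less. Ier2 was at 16.3, 21.7 and 29.2 CPM intact and at 16.7, 20.6 and 29.1 CPM in suspension, with a log2 fold change of -0.02 ± 0.22. Ier3 was at 15.8, 23.7 and 30.1 CPM intact and at 19.2, 36.8 and 36.3 CPM in suspension (0.40 ± 0.26, adjusted p = 0.319). Ier5 was at 24.7, 27.9 and 28.0 CPM intact and at 22.6, 22.3 and 26.9 CPM in suspension (-0.18 ± 0.09, adjusted p = 0.194), and was called lower in the suspension once its replicate 3 was left out (-0.27, adjusted p = 0.0423). Nr4a2 gave -0.17 ± 0.33. Egr2 and Egr3 were below 1 CPM in all 6 libraries. Of the 34 other immediate-early genes 2 were higher and 4 lower in the suspension, and the 4 hemoglobin genes were all higher there (Hbb-bt by 2.66 ± 0.62). The intact kidneys of Balb/c males, which have no bulk suspension to be set against, held Egr1 at 4.73 to 11.3 CPM, Nr4a1 at 3.87 to 4.82, Ier2 at 6.14 to 15.0, Ier3 at 7.36 to 8.76 and Ier5 at 9.77 to 28.8 CPM.

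The 10x libraries of the C57BL/6J suspensions gave the warm-cold comparison in captured cells. Over all barcodes, each of the 6 members tested was higher after warm dissociation, against 7.86% of all genes, with a median log2 fold change of 2.55 against -0.03 over all genes. The members were chosen with earlier results of these data known, so this count is no independent evidence. For 3 of the 6 at least 1 cold library was set to 0, and the other 3 had a median of 1.45. Egr1 led among the genes with counts in most libraries, Ier2 rose 4.61-fold and Ier5 2.72-fold, and Ier3 had the smallest difference, 1.54-fold.

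Ier2 was at 25.0, 52.0 and 35.6 CPM in the cold libraries and at 170, 172 and 132 in the warm ones (log2 fold change 2.20 ± 0.23, adjusted p = 0.000612). Ier5 was at 32.1, 36.0 and 29.6 cold and at 91.4, 71.7 and 79.7 warm (1.45 ± 0.12, adjusted p = 0.000176). Both genes were separate between the groups. Ier3 was at 28.3, 41.0 and 37.3 CPM cold and at 55.4, 45.6 and 49.6 warm (0.62 ± 0.14, adjusted p = 0.0216). Its groups came close, with 41.0 cold against 45.6 warm, and the call was lost when cold replicate 2 or 3 or warm replicate 1 or 3 was left out (0.57 to 0.72, adjusted p = 0.0559 to 0.0821). Without the barcodes gated as proximal tubule, Ier3 gave 0.97 and was called.

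The other 3 genes met the filter in the cold libraries. Egr1 was at 0, 9.18 and 3.02 CPM cold and at 103, 118 and 109 warm, with a log2 fold change of 4.78 ± 0.49 (adjusted p = 0.000612) that takes the 0 of cold replicate 1 as a count. Nr4a1 was at 0, 6.66 and 6.41 cold and at 40.1, 27.6 and 29.7 warm (2.91 ± 0.47, adjusted p = 0.00604; DESeq2 0.119). Nr4a2 was listed at 0 in all 3 cold libraries and at 6.20, 4.12 and 4.36 in the warm ones, so that no fold is given. In all 3 genes every warm library lay above every cold one. With the values of filtered genes replaced by 9 UMIs, the most that 9 barcodes with 1 UMI each could hold, Nr4a2 was still called higher (at the lowest over the alternatives, 1.50). Egr2 had counts in warm replicate 2 only (2.01 CPM).

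**Figure D2:**
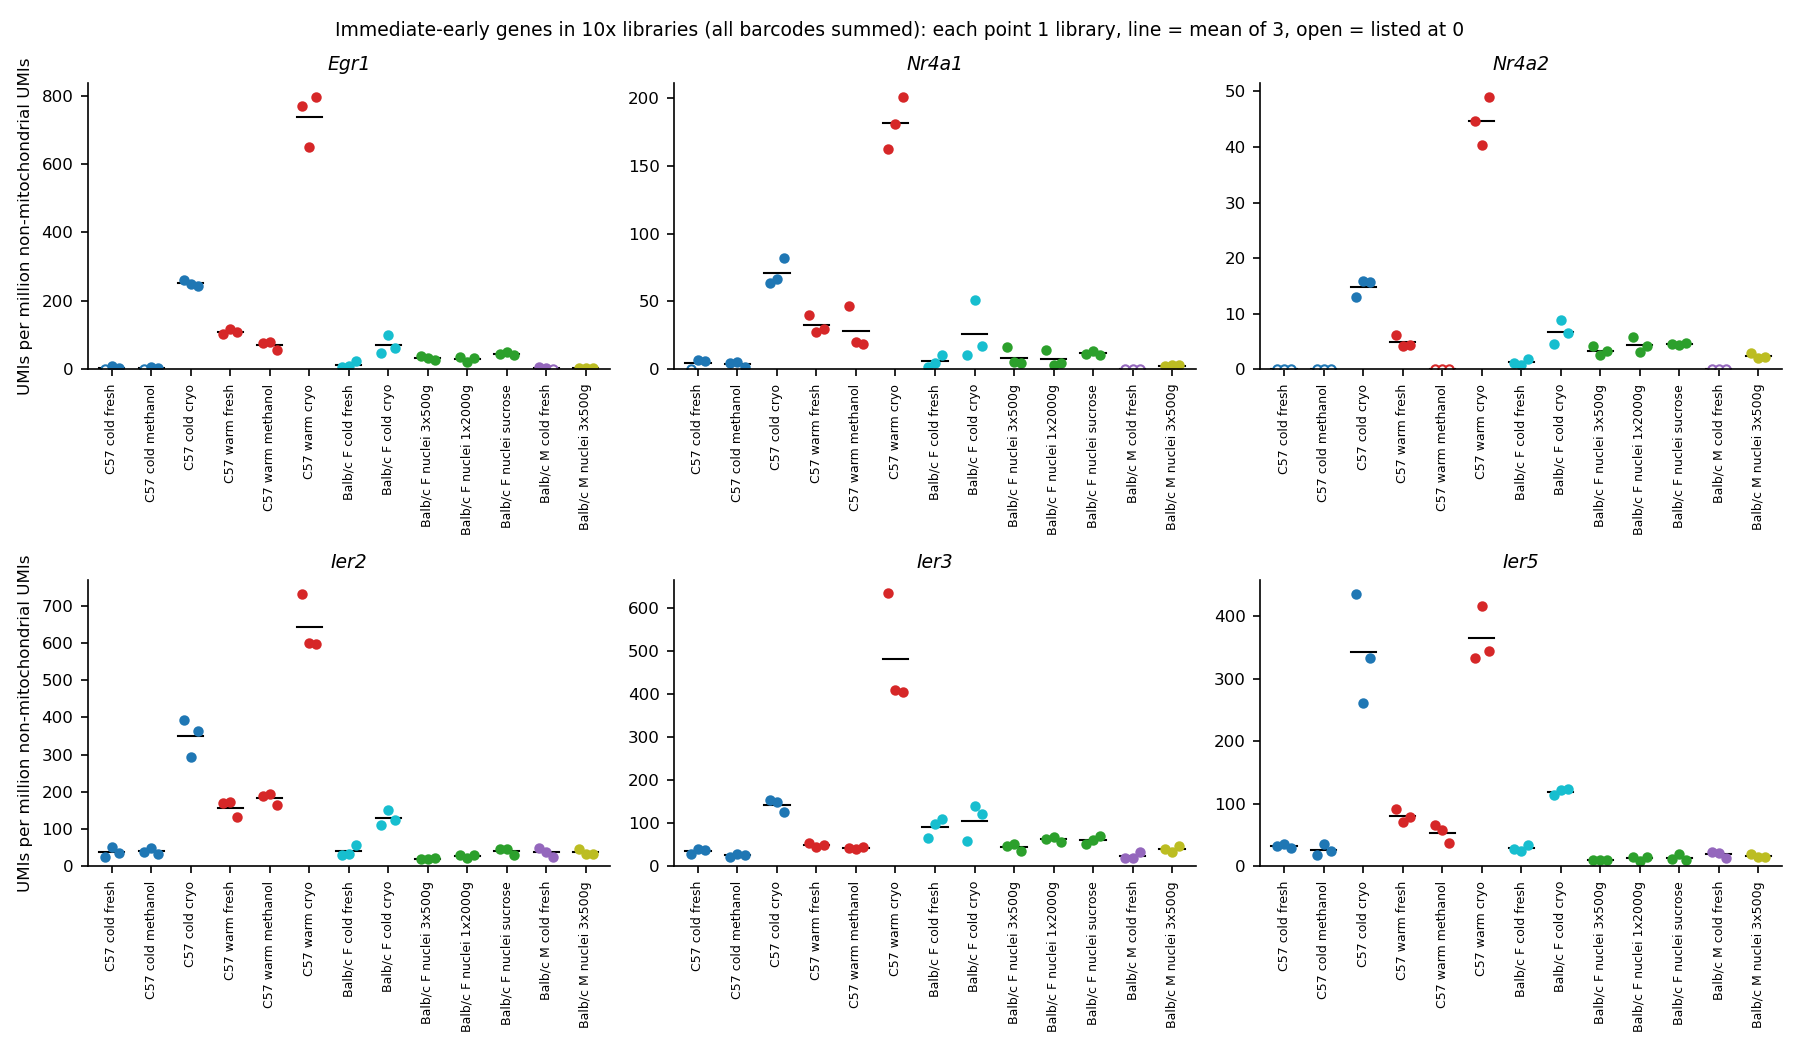
CPM over non-mitochondrial UMIs (y axis, linear, from 0) of 6 genes in the 13 groups of 10x libraries (x axis); each point is 1 library, an open point a value listed at 0 and the line the mean of 3. Among the 6 C57BL/6J groups the cryopreserved ones have the highest means in each panel, for Ier2 at 293 to 394 after cold and 596 to 733 after warm dissociation.

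To place these changes in cell types, barcodes were assigned to a class where at least 2 of its fixed markers, and more than of every other class, had a UMI. A class name below stands for the barcodes that passed its gate. Markers held out of the gate were highest in their own class in 33 of 33 checks (1 marker in 1 group) for proximal tubule, and likewise for the thick ascending limb (26 of 26), endothelium (26 of 26), principal cells (23 of 24) and T cells (22 of 23), less often for the distal convoluted and connecting tubule (19 of 26), macrophages (14 of 22) and B cells (9 of 14), and in 1 of 8 for monocytes. The label monocyte is thus not borne out, and it stands here for the gate of its markers. Doublets were not called. Barcodes with at least 2 markers of each of 2 or more classes, which stay in a gate if 1 class has the most, made up 16.8 to 33.5% of the fresh, 17.9 to 41.7% of the cryopreserved and 31.4 to 45.0% of the methanol-fixed C57BL/6J libraries. In the Balb/c males they were 12.3 to 15.6% of cells and 27.7 to 39.6% of nuclei, and in the females 25.5 to 37.3% of cells and 56.0 to 76.7% of nuclei. The part of such barcodes and of free RNA in the class values was not tested.

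Ier2 rose in 8 of the 9 classes where it could be tested, by 1.69 to 4.47 on the log2 scale. The proximal tubule, the segment that reabsorbs most of the filtrate, held 7.0, 19.1 and 8.86 CPM cold and 58.9, 112 and 41.8 warm (2.68 ± 0.40, adjusted p = 0.00563). Principal cells, which take up sodium and water in the collecting duct, held 29.7, 48.2 and 31.3 cold and 1214, 617 and 833 warm (4.47 ± 0.31, adjusted p = 3.14e-09), the largest change of Ier2. The endothelium started from the highest cold level, 141, 283 and 183, and reached 759, 662 and 588 (1.69 ± 0.22). In each of these classes the groups were separate. In the distal convoluted and connecting tubule, at 23.0, 22.5 and 29.6 cold and 224, 67.1 and 124 warm, the groups were separate too, but the difference of 2.17 ± 0.52 was not called (adjusted p = 0.225). It was called with DESeq2 (2.33, adjusted p = 0.0215), with no low-count filter (2.21, adjusted p = 1.06e-05) and without warm replicate 2 (2.66, adjusted p = 0.00297).

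Ier5 rose in each of its 6 tested classes, most in the immune ones: T cells by 2.46 ± 0.38, macrophages by 2.41 ± 0.27, the monocyte gate by 2.24 ± 0.45 and B cells by 1.89 ± 0.30, against 1.54 ± 0.28 in the proximal tubule and 1.29 ± 0.18 in the endothelium. The calls of Ier5 (1.93 to 2.32, adjusted p = 0.0540 to 0.119) and Ier2 (1.38 to 2.29, adjusted p = 0.0852 to 0.365) in the monocyte gate were lost without cold replicate 1, cold replicate 3 or warm replicate 2, and that of Ier5 in the proximal tubule without cold replicate 2 (1.64, adjusted p = 0.0566). Macrophages held 250, 162 and 133 CPM of Ier5 cold and 1132, 665 and 991 warm, with separate groups. The difference between the classes was tested only against the proximal tubule, and was not called for Ier5 in any class. Egr1 was higher in the 6 classes tested (proximal tubule 5.54 ± 0.58, thick ascending limb 5.88 ± 0.59, distal convoluted and connecting tubule 5.86 ± 1.00, principal cells 5.90 ± 0.41, endothelium 3.32 ± 0.39, macrophages 4.70 ± 0.50), each time with cold replicate 1 at 0 by the filter. In the distal convoluted and connecting tubule the Egr1 call was lost without any 1 cold library or without warm replicate 3 (adjusted p = 0.0665 to 0.260). The warm levels of Egr1 were highest in principal cells, at 1124, 1060 and 781 CPM, above the endothelium (382, 298 and 364) and macrophages (434, 210 and 388), whose ranges overlapped. Nr4a1 was called higher in macrophages, the monocyte gate, principal, T and B cells, with cold replicate 1 at 0, and the call in the monocyte gate was lost without cold or warm replicate 3 (adjusted p = 0.109 and 0.0570). Nr4a2 stood at 213, 96.1 and 189 CPM in warm T cells, from 13, 7 and 11 of the 26, 43 and 21 UMIs it had in these libraries, where the cold libraries were set to 0.

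Over the 31 pairs of member and class that could be tested, 28 were called higher and 1 lower, against 2.48% and 1.85% of all gene and class pairs. Of the 20 pairs without a filtered library, 17 were higher and 1 lower. These counts are no independent evidence either, since the members were chosen with earlier results of these data known. The single lower pair was Ier3 in the thick ascending limb, a direction known from earlier results of these data.

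**Figure D3:**
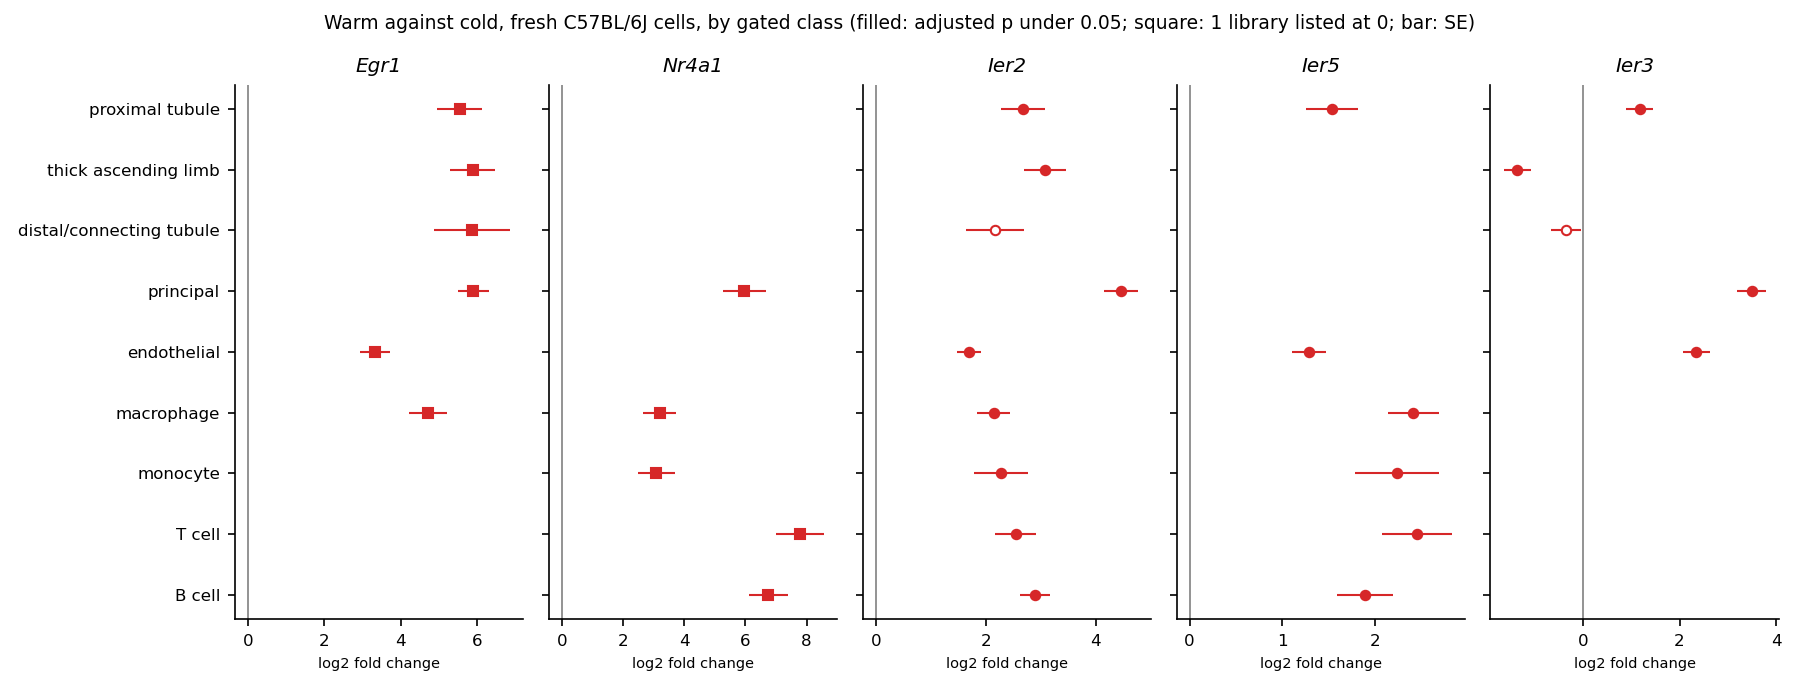
Log2 fold change, warm against cold (x axis, bar: SE), of 5 genes by gated class (y axis) in fresh C57BL/6J cells; filled points had an adjusted p under 0.05 and squares rest on 1 library set to 0. Ier3 in the thick ascending limb, at -1.36, is the only filled point left of 0.

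The thick ascending limb dilutes the urine by reabsorbing salt and carries Umod and Slc12a1. It held Ier3 at 112, 220 and 143 CPM in the cold libraries, from 14, 44 and 28 UMIs in 82, 159 and 202 barcodes. In the warm libraries it held 67.2, 73.6 and 51.6, from 13, 34 and 18 UMIs in 156, 328 and 238 barcodes. The lowest cold value lay above the highest warm one, and Ier3 was lower after warm dissociation (log2 fold change -1.36 ± 0.29, adjusted p = 0.0114). This direction was known from earlier results of these data, so the p is no independent evidence. The call was lost without cold replicate 2 (-1.04, adjusted p = 0.177) or warm replicate 3 (-1.17, adjusted p = 0.0848). In the same barcodes Ier2 (8.00, 30.0 and 15.3 cold, 222, 136 and 166 warm) rose by 3.08 ± 0.38 and Egr1 by 5.88 ± 0.59.

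In 3 other classes Ier3 rose. Principal cells went from 37.2, 35.1 and 54.8 to 555, 462 and 377 CPM (3.49 ± 0.30, adjusted p = 5.51e-08) and the endothelium from 43.0, 81.4 and 48.8 to 393, 313 and 220 (2.35 ± 0.27, adjusted p = 7.42e-05), both called in all 12 alternatives. The proximal tubule had the lowest levels, 5.35, 7.70 and 4.25 cold and 15.2, 12.5 and 10.0 warm (1.17 ± 0.27, adjusted p = 0.0286; called in 6 of 11 alternatives, and lost without any 1 library except cold replicate 1). In all 3 classes the groups were separate. In the distal convoluted and connecting tubule, which had the highest cold level (253, 298 and 232), the warm libraries stood at 276, 114 and 310 and overlapped them (-0.34 ± 0.31, adjusted p = 0.856).

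The difference between classes was tested as the term of class by dissociation, with the library as a block. The warm-cold difference of Ier3 was lower in the thick ascending limb than in the proximal tubule by 2.31 on the log2 scale (-2.31 ± 0.37, adjusted p = 5.41e-05). It stayed called in all 10 alternatives (-2.51 to -2.17), where 0.224% of 9821 genes were called lower in this test. Since the direction of Ier3 in this segment was known from earlier results of these data when the test was chosen, its p is no independent evidence. In principal cells the differences of Ier3 (2.30 ± 0.46, adjusted p = 0.000304) and of Ier2 (1.86 ± 0.41, adjusted p = 0.00151) exceeded those of the proximal tubule. These were the 3 called of 45 pairs tested, against 0.413% of all pairs. For Ier3 in the distal convoluted and connecting tubule (-1.60 ± 0.38) and the endothelium (1.21 ± 0.36) the term was not called (adjusted p = 0.0852 and 0.129).

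**Figure D4:**
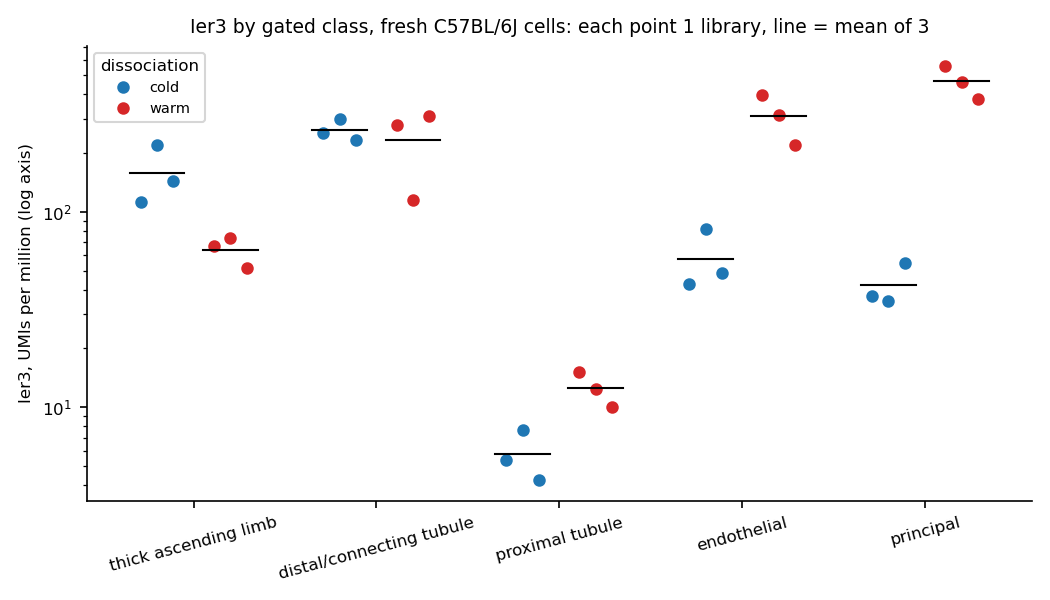
Ier3 in CPM (y axis, log scale) in 5 gated classes (x axis) of fresh C57BL/6J cells after cold and warm dissociation; each point is 1 library and the line the mean of 3. The thick ascending limb is the class where the 3 warm points (51.6 to 73.6) lie below the 3 cold points (112 to 220), while the principal cells go from 35.1 to 54.8 up to 377 to 555.

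Across the list of other immediate-early genes, 26 of 33 tested rose over whole fresh libraries (median log2 fold change 1.94), with none lower. Of the regulators 1 rose and 4 fell, where 948 of 12061 genes were higher and 853 lower, among them Nab2 (-0.84 ± 0.16) and Creb1 (-0.67 ± 0.12). Ier5l, which had risen in bulk, gave -0.17 ± 0.21 here.

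The next comparisons asked what storage adds. Suspensions of C57BL/6J kidneys were frozen in medium with serum and DMSO, and the thawed cells were compared with the fresh ones of the same dissociation. All 6 members tested were higher in the cryopreserved libraries after either dissociation, against 21.8% of genes called higher after cold and 25.8% after warm dissociation, with member medians of 3.47 and 2.28 on the log2 scale. Over the 3 members without a fresh library set to 0 the median after cold dissociation was 3.03. The proximal tubule was nearly absent from these libraries, with 0 to 1.20% of UMIs against 53.2 to 72.1% in the fresh ones, and hemoglobin fell from 2410 to 17623 down to 5.21 to 68.6 CPM. The storage time and the day of the run go with the storage and cannot be told apart from it. The same fresh libraries are used in the dissociation, cryopreservation and methanol comparisons. The median log2 fold change of all genes was -0.13 after cold and -0.15 after warm dissociation.

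After cold dissociation, Ier5 went from 32.1, 36.0 and 29.6 CPM fresh to 436, 262 and 333 cryopreserved, 9.27-fold (log2 3.21 ± 0.19, adjusted p = 1.83e-05). Ier2 went from 25.0, 52.0 and 35.6 to 394, 293 and 364, 8.18-fold (3.03 ± 0.25, adjusted p = 6.28e-05). Ier3 went from 28.3, 41.0 and 37.3 to 155, 150 and 126, 3.56-fold (1.83 ± 0.15, adjusted p = 6.28e-05). Every cryopreserved library lay far above the fresh ones in all 3 genes. Without the barcodes gated as proximal tubule, the change of Ier3 was 1.05 and that of Ier2 2.39, both still called. Egr1 reached 261, 248 and 245 CPM, Nr4a1 63.8, 66.4 and 81.8 and Nr4a2 13.0, 15.8 and 15.7, each called higher against fresh libraries of which 1, 1 and 3 had been set to 0.

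After warm dissociation no fresh library of the 6 genes was set to 0, and the rise came on top of the higher warm levels. Ier3 went from 55.4, 45.6 and 49.6 to 633, 409 and 404 CPM, 7.60-fold (2.93 ± 0.19, adjusted p = 2.01e-05). Nr4a2 went from 6.20, 4.12 and 4.36 to 44.7, 40.3 and 49.1, 7.41-fold (2.89 ± 0.18, adjusted p = 1.63e-05), and Egr1 from 103, 118 and 109 to 771, 649 and 797, 5.28-fold (2.40 ± 0.11, adjusted p = 4.94e-06).
Nr4a1 went from 40.1, 27.6 and 29.7 to 163, 181 and 201, 4.48-fold (2.16 ± 0.15), Ier5 from 91.4, 71.7 and 79.7 to 333, 416 and 344, 3.58-fold (1.84 ± 0.13), and Ier2 from 170, 172 and 132 to 733, 600 and 596, 3.20-fold (1.68 ± 0.14). In each of the 6 genes the groups were far apart. Without the barcodes gated as proximal tubule all 6 remained called at smaller differences, from 0.69 for Ier5 to 1.83 for Ier3.

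Within classes, 20 of 25 pairs of member and class were called higher after cold dissociation and cryopreservation (14 of 19 without a filtered library), against 3.73% of all pairs, and none was lower. Ier2 and Ier5 rose in the endothelium, macrophages, T cells, B cells and the monocyte gate, by 0.98 to 2.32 on the log2 scale, though the call of Ier5 in the monocyte gate was lost with the stricter gate of 3 markers (1.57, adjusted p = 0.0535). Macrophages held Ier2 at 116, 113 and 97.9 CPM fresh and at 342, 346 and 352 cryopreserved (1.79 ± 0.22, adjusted p = 2.57e-06), a change with no overlap and little spread. Ier3 rose in the endothelium, from 43.0, 81.4 and 48.8 to 427, 358 and 306 (2.65 ± 0.23, adjusted p = 7.85e-07), and in macrophages by 3.13 ± 0.61, there from 4 UMIs in the fresh libraries. In the thick ascending limb Ier3 gave 1.22 ± 0.38 (adjusted p = 0.107), with the cryopreserved libraries at 375, 447 and 207 CPM from 6, 25 and 4 UMIs.

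After warm dissociation 15 of 37 pairs were called higher and none lower, against 6.28% of all pairs. Ier3 was called in 5 classes. In the thick ascending limb it went from 67.2, 73.6 and 51.6 fresh to 519, 154 and 285 CPM cryopreserved (2.48 ± 0.37, adjusted p = 0.000718), so the segment that had the lower Ier3 after fresh warm dissociation had a separate and higher range after storage. Principal cells went from 555, 462 and 377 to 956, 928 and 966 (1.17 ± 0.19, adjusted p = 0.000976), and the endothelium from 393, 313 and 220 to 992, 816 and 655 (1.56 ± 0.20, adjusted p = 0.000138). Intercalated cells (1.94 ± 0.45; adjusted p = 0.0572 without fresh replicate 1) and macrophages (2.66 ± 0.52) were the other 2 classes.

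Egr1, in the same libraries, rose in the endothelium from 382, 298 and 364 to 1137, 1019 and 1067 CPM (1.80 ± 0.14, adjusted p = 1.82e-06), in the thick ascending limb by 1.93 ± 0.22 and in intercalated cells by 1.72 ± 0.46, there not without fresh replicate 1 or 3 or cryopreserved replicate 3 (adjusted p = 0.0567 to 0.196), nor with DESeq2 (adjusted p = 0.224) or the stricter gate (1.38, adjusted p = 0.110). In the immune classes no member except Ier3 was called: macrophages held Ier2 at 715, 388 and 316 fresh and 584, 372 and 506 cryopreserved, which overlapped (0.23 ± 0.27), and Ier5 at 1132, 665 and 991 against 746, 671 and 832 (-0.12 ± 0.20). B cells gave -0.51 ± 0.21 for Ier2 and -0.24 ± 0.26 for Ier5. With the suspension number as a replicate block, Ier3 (1.18, adjusted p = 0.0219) and Egr1 (1.55, adjusted p = 0.0142) in the distal convoluted and connecting tubule and Egr1 in macrophages (0.71, adjusted p = 0.0437) were called in addition, while Ier2 (1.63, adjusted p = 0.0600) and Egr1 (1.83, adjusted p = 0.0642) in intercalated cells were not.

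**Figure D5:**
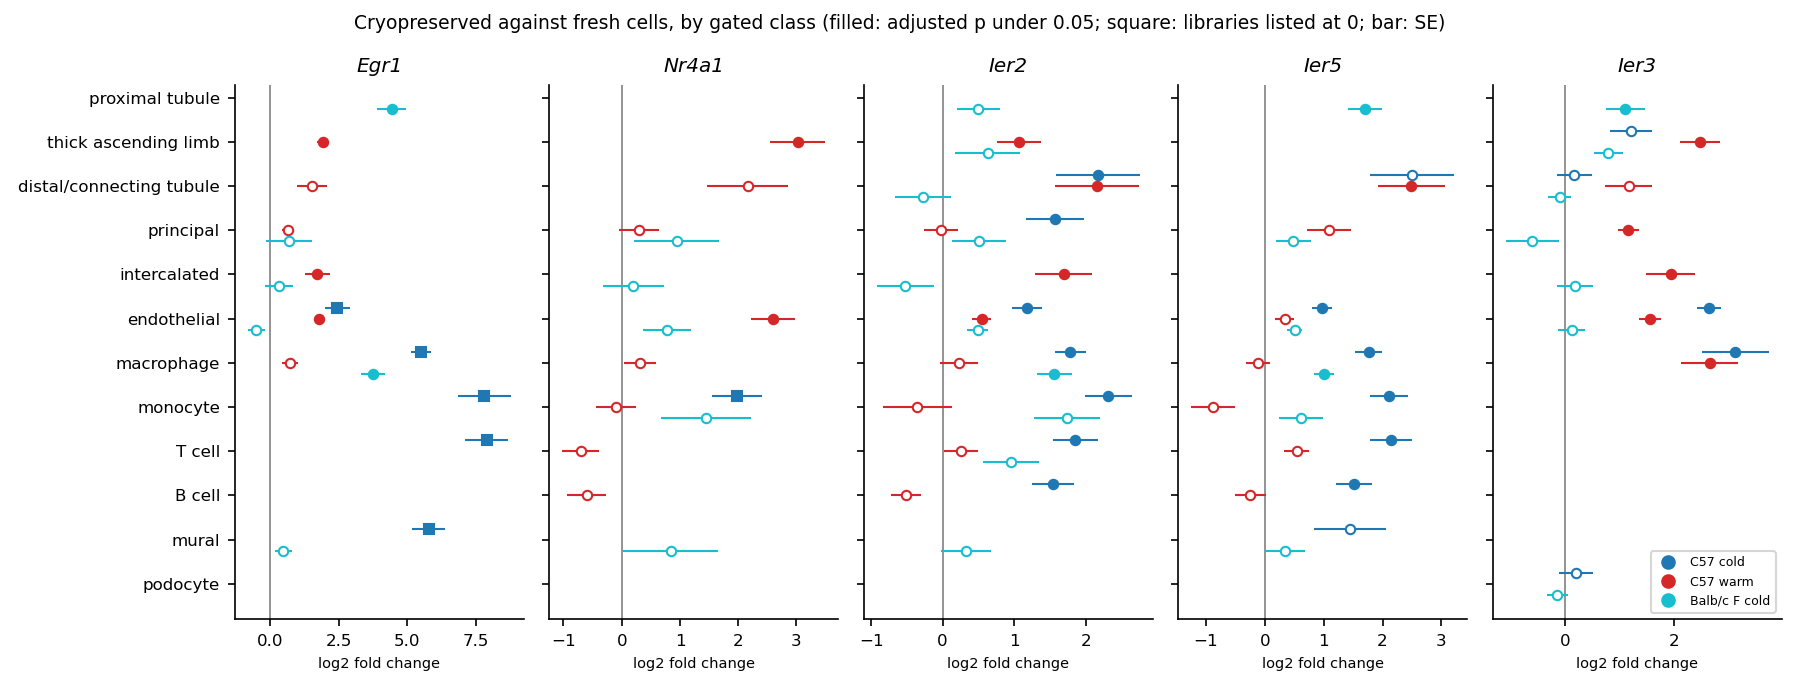
Log2 fold change, cryopreserved against fresh (x axis, bar: SE), by gated class (y axis) for C57BL/6J cells after cold and after warm dissociation and for Balb/c female cells after cold dissociation; filled points had an adjusted p under 0.05. Ier2 and Ier5 of macrophages lie at 1.79 and 1.77 after cold and at 0.23 and -0.12 after warm dissociation.

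Whether storage and dissociation add up was tested as their interaction over the 4 fresh and cryopreserved C57BL/6J groups. Over whole libraries the rise with cryopreservation was smaller after warm than after cold dissociation for Ier5 (-1.40 ± 0.23, adjusted p = 0.00773) and Ier2 (-1.37 ± 0.30, adjusted p = 0.0206), and larger for Ier3 (1.07 ± 0.25, adjusted p = 0.0296). Egr1 (-3.27 ± 0.57) and Nr4a2 (-5.71 ± 0.71) were called lower with 1 and 3 cold fresh libraries set to 0, and Nr4a1 was not called (-1.59 ± 0.57, adjusted p = 0.116). For Nr4a2 the term is set by these zeros, and no dependence on dissociation is read from it. Its rise after cold dissociation ran from 2.78 to 8.76 over the alternatives, filtered values at 9 UMIs among them. That after warm dissociation was 2.89, from fresh libraries with counts. These rises cannot be compared, since all 3 cold fresh libraries were set to 0. The interaction was not run with filtered values at 9 UMIs. Of all genes 2.07% were called higher and 4.25% lower. With 1 library left out, the call of Ier2 was lost without cold fresh replicate 3, warm fresh replicate 1, cold cryopreserved replicate 1 or warm cryopreserved replicate 3 (adjusted p = 0.0505 to 0.0576). That of Ier3 was lost without cold fresh replicate 2 or 3, any 1 warm fresh library or cold cryopreserved replicate 1 or 3 (adjusted p = 0.0527 to 0.0834). For Ier3 the call did not hold without the proximal tubule barcodes (0.80, adjusted p = 0.152). With the suspension number as a replicate block none of the 5 calls held, at nearly the same values: Ier5 -1.37 (adjusted p = 0.0577), Ier2 -1.40 (adjusted p = 0.0807), Ier3 1.03 (adjusted p = 0.0669), Egr1 -3.41 (adjusted p = 0.0629) and Nr4a2 -5.74 (adjusted p = 0.0515).

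The end levels differed between the genes. Cold cryopreserved libraries held Ier5 at 344 ± 87.7 (SD, n = 3) CPM and warm cryopreserved ones at 364 ± 44.8, which overlapped, from fresh levels of 32.6 ± 3.21 and 80.9 ± 9.93. Ier3 stood at 144 ± 15.2 in the cold and 482 ± 131 in the warm cryopreserved libraries, which did not overlap. Ier2 (350 cold and 643 warm), Egr1 (251 and 739), Nr4a1 (70.6 and 182) and Nr4a2 (14.9 and 44.7) also ended higher after warm dissociation, without overlap. By class, 8 of 42 pairs were called as a smaller rise after warm dissociation and none as a larger one, against 0.389% of all pairs called lower. They were Ier5 (-1.83 ± 0.32), Ier2 (-1.51 ± 0.36) and Egr1 in macrophages, the same 3 genes in the monocyte gate, Egr1 in T cells and Ier2 in B cells (-1.96 ± 0.36, adjusted p = 0.00418). Each Egr1 value takes 1 cold fresh library set to 0 as a count. With 1 library left out, Ier2 in macrophages was lost in 7 cases, all but those of cold fresh replicate 1, warm fresh replicate 2 and 3 and replicate 1 of both cryopreserved groups (adjusted p = 0.0608 to 0.128), Ier2 in the monocyte gate in 5 (adjusted p = 0.0507 to 0.264), without cold fresh replicate 2 or 3, warm fresh replicate 2 or warm cryopreserved replicate 2 or 3, and Egr1 in T cells in 2, without cold or warm fresh replicate 3 (adjusted p = 0.0630 and 0.0514). With the replicate block, Egr1 in the thick ascending limb (-3.63, adjusted p = 0.0421) and Nr4a1 in B cells (-4.08, adjusted p = 0.0181) were called as well, both with 1 cold fresh library set to 0.

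The cold cells of Balb/c females gave a second cryopreservation, of 2 weeks. Here 5 of the 6 members rose over whole libraries, against 28.9% of all genes, and Ier3 did not. Ier5 went from 28.5, 24.2 and 34.9 to 114, 122 and 123 CPM, 3.11-fold (1.64 ± 0.12, adjusted p = 1.38e-05), and Ier2 from 30.9, 34.2 and 56.5 to 113, 153 and 126, 2.44-fold (1.29 ± 0.22, adjusted p = 0.00112). Both had separate groups. Egr1 went from 5.53, 9.94 and 23.4 to 48.5, 101 and 62.8 (2.08 ± 0.46, adjusted p = 0.00444), Nr4a2 from 1.17, 0.752 and 1.93 to 4.53, 8.94 and 6.47 (2.02 ± 0.40, adjusted p = 0.0025) and Nr4a1 from 1.95, 4.57 and 10.8 to 10.6, 51.0 and 17.5 (1.83 ± 0.65, adjusted p = 0.0394). For Nr4a1 the groups overlapped, and the call held in 6 of 12 alternatives. Among those that lost it were the fits without fresh replicate 1 or 2 or cryopreserved replicate 2 or 3 (adjusted p = 0.0522 to 0.262).

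Ier3 was at 65.7, 98.7 and 110 CPM fresh and at 58.3, 139 and 121 cryopreserved (-0.20 ± 0.30, adjusted p = 0.584), with overlapping groups. The mean CPM was 91.6 fresh and 106 cryopreserved, so the fitted value, on TMM-scaled counts, has the opposite sign to the difference of the means, and no direction is given. The proximal tubule share of UMIs fell here too, from 48.2 to 57.7% down to 8.38 to 13.0%, and without these barcodes Ier3 gave -0.88 (adjusted p = 0.0548). By class 6 of 34 pairs were called higher, against 3.10% of all pairs. In the proximal tubule Egr1 went from 0.970, 0.559 and 3.14 to 24.7, 43.7 and 42.5 CPM (4.44 ± 0.53, adjusted p = 3.08e-05), Ier5 from 9.21, 13.3 and 16.9 to 64.3, 47.8 and 42.5 (1.70 ± 0.29, adjusted p = 0.000544), and Ier3 by 1.11 ± 0.35, a call lost without any 1 cryopreserved library (adjusted p = 0.0576 to 0.157). In macrophages Egr1 rose by 3.76 ± 0.43, Ier2 by 1.56 ± 0.24 and Ier5 by 1.00 ± 0.17. In the thick ascending limb Ier3 stood at 118, 150 and 197 fresh and at 109, 432 and 290 cryopreserved (0.80 ± 0.27, adjusted p = 0.115).

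Of the other immediate-early genes, 30 of 32 rose after C57BL/6J cold cryopreservation, 32 of 33 after warm and 28 of 32 in the Balb/c females, with none lower. Ier5l rose after warm dissociation and cryopreservation (2.14 ± 0.18). Of the 16 regulators tested in each C57BL/6J comparison, 4 rose after cold and 9 after warm dissociation, beside the 21.8% and 25.8% of all genes called higher. In each 2 fell, where 3292 of 11392 and 3655 of 10778 genes were lower.

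Methanol fixation, with storage for months, was compared with the same fresh libraries. After cold dissociation none of the 5 members tested was called (edgeR's quasi-likelihood test; 0 also at an unadjusted p under 0.05 and 0 with DESeq2), against 27.9% of all genes called in either direction. Ier2 stood at 40.2, 48.6 and 33.4 CPM against 25.0, 52.0 and 35.6 fresh (0.27 ± 0.24), Ier3 at 21.8, 30.0 and 27.1 against 28.3, 41.0 and 37.3 (-0.25 ± 0.18), and Ier5 at 18.8, 35.4 and 25.4 against 32.1, 36.0 and 29.6 (-0.09 ± 0.20). The groups of all 3 genes overlapped. Within each suspension number Ier3 and Ier5 were lower fixed than fresh, but neither was called in any alternative, the replicate block included. After warm dissociation Egr1 was lower in the fixed libraries, at 76.7, 78.7 and 55.4 against 103, 118 and 109 (-0.53 ± 0.15, adjusted p = 0.0395), where 9.77% of all genes were lower, and without proximal tubule barcodes by 1.13 on the log2 scale (-1.13). The call held in 8 of 13 alternatives. It was lost without any 1 warm fresh library (adjusted p = 0.0616, 0.129 and 0.0793), without warm fixed replicate 1 (0.0517) and with no low-count filter (0.0577). The median log2 fold change of all genes there was -0.20.

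Nr4a2 was set to 0 in all 3 warm fixed libraries, and its call gave way to 0.02 on the log2 scale with filtered values at 9 UMIs. Ier2 (190, 196 and 166 against 170, 172 and 132), Ier3 (43.1, 41.2 and 45.6 against 55.4, 45.6 and 49.6) and Ier5 (65.9, 58.4 and 38.2 against 91.4, 71.7 and 79.7) were not called. With the replicate block Ier2 was called higher (0.28, adjusted p = 0.0294) and Nr4a2 was not called (adjusted p = 0.282). Ier5 was called lower in 3 of 13 alternatives: without proximal tubule barcodes (-0.60, adjusted p = 0.0355), over genes kept in every library (-0.48, adjusted p = 0.0411) and with filtered values at 9 UMIs (-0.60, adjusted p = 0.00245).

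Ier3 was called lower after fixation in the distal convoluted and connecting tubule. This class held Ier3 at 253, 298 and 232 CPM fresh and at 102, 97.4 and 121 fixed after cold dissociation (-1.35 ± 0.21, adjusted p = 0.000426), with separate groups, in all 12 alternatives. After warm dissociation it held 276, 114 and 310 fresh and 54.8, 59.3 and 103 fixed (-1.76 ± 0.42, adjusted p = 0.00413), and Egr1 fell there too (-1.59 ± 0.57, adjusted p = 0.0394). The call of Ier3 after warm dissociation was lost without fixed replicate 2 (adjusted p = 0.0768), and that of Egr1 without fresh replicate 1 or 3 or fixed replicate 2 or 3 (adjusted p up to 0.383). Of the markers held out of this gate, Wnk4 stood at 386 CPM fresh and 129 fixed after cold and at 373 and 85.5 after warm dissociation (Klhl3 was listed at 0 in every class of the fixed libraries, as genes under the filter are, and is not compared). Pdzk1, of the proximal tubule, stood in this gate at 410 after cold and 593 after warm dissociation and fixation, against 165 in the warm fresh libraries. Over whole libraries hemoglobin was at 14348 to 33801 CPM fixed against 5690 to 17623 fresh after cold, and at 5164 to 9034 against 2410 to 4645 after warm dissociation. The part of these in the values of Ier3 and Egr1 was not tested. These were 1 of 12 and 2 of 24 pairs called, against 11.0% and 7.33% of all pairs called lower, so the shares are near or under the background. In the thick ascending limb the fixed cold libraries held Ier3 at 131, 89.2 and 88.4 and the fixed warm ones at 98.7, 56.0 and 42.1, from 2 to 22 UMIs, with differences from fresh of -0.77 ± 0.30 (adjusted p = 0.0701) and -0.01 ± 0.38. With the replicate block Ier2 was called higher in the proximal tubule after cold dissociation (0.60, adjusted p = 0.0427).

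Nuclei hold RNA before export and little cytoplasm, so their comparison with cells sets different RNA pools side by side. The study counted intronic and exonic reads for nuclei but exonic reads only for cells, and took nuclei from flash-frozen kidneys. These differences and that of the RNA pools cannot be told apart here. In Balb/c females the Ier genes were lower over whole libraries in 3x500g nuclei than in fresh cold cells, and no Egr or Nr4a gene was called lower. Ier5 went from 28.5, 24.2 and 34.9 in cells to 10.7, 9.67 and 9.92 CPM in nuclei, 3.89-fold lower (-1.96 ± 0.12, adjusted p = 6.46e-07). Ier2 went from 30.9, 34.2 and 56.5 to 21.3, 20.5 and 21.8 (-1.36 ± 0.19, adjusted p = 0.000175) and Ier3 from 65.7, 98.7 and 110 to 47.8, 51.9 and 35.3 (-1.47 ± 0.21, adjusted p = 0.000181). The 3 genes had separate groups and were called in all 11 alternatives. These differences stand against 41.0% of genes lower and 43.8% higher, with a median of 0.10 over all genes.

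Nr4a2 was higher in nuclei, at 4.18, 2.6 and 3.27 against 1.17, 0.752 and 1.93 CPM (1.01 ± 0.37, adjusted p = 0.0318), in 6 of 11 alternatives. Among those that lost the call were the fits without cell replicate 1 or 2 or nuclei replicate 1 or 3 (adjusted p = 0.0778 to 0.144). Egr1 stood at 37.4, 31.7 and 28.0 in nuclei against 5.53, 9.94 and 23.4 in cells (0.92 ± 0.39, adjusted p = 0.0549), with no overlap between the groups. By class, 17 of 30 pairs were lower in nuclei and 5 higher, against 39.2% and 42.3% of all pairs. The endothelium had the largest differences of Ier2 and Ier5 among the classes tested: Ier2 was at 119, 131 and 177 in cells and at 24.3, 28.1 and 18.5 in nuclei (-2.80 ± 0.20, adjusted p = 1.91e-09), and Ier5 fell by 2.28 (-2.28 ± 0.16). In principal cells Nr4a2 was at 0.851, 0.960 and 3.87 in cells, from 1 to 3 UMIs, and at 36.7, 13.0 and 26.2 in nuclei, from 19 to 48 UMIs (3.45 ± 0.60, adjusted p = 3.48e-05). In mural cells Egr1 went from 45.0, 78.5 and 145 to 433, 461 and 284 (1.68 ± 0.31), and in the thick ascending limb Ier3 from 118, 150 and 197 to 101, 70.8 and 62.6 (-1.40 ± 0.19).

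In Balb/c males, with 53.6% of genes called higher and a median log2 fold change of 0.84 over all genes, Ier3 was higher in nuclei, at 40.3, 32.8 and 48.5 against 20.1, 20.6 and 33.8 CPM in cells (0.57 ± 0.22, adjusted p = 0.0431). The groups overlapped, the call held in 5 of 11 alternatives, and the value lay under the median of all genes. Among the alternatives that lost the call were the fits without cell replicate 1 or 2 or nuclei replicate 1 or 3 (adjusted p = 0.0956 to 0.175). Ier2 (46.4, 34.4 and 33.6 against 50.5, 38.9 and 25.7; -0.19 ± 0.24) and Ier5 (19.8, 15.0 and 15.2 against 23.7, 21.4 and 13.9; -0.43 ± 0.24) overlapped between cells and nuclei. Nr4a1 and Nr4a2 were set to 0 in all 3 male cell libraries, and their calls turned to -0.80 and -0.90 with filtered values at 9 UMIs. By class 3 of 9 pairs were called higher, against 44.9% of all pairs: Ier3 in the proximal tubule (0, 2.44 and 8.63 in cells, 22.6, 14.0 and 21.1 in nuclei) and in the distal convoluted and connecting tubule (1.17 ± 0.30), and Ier2 in the proximal tubule (0.90 ± 0.27). The last 2 calls were lost without cell replicate 2 (adjusted p = 0.0529) and cell replicate 3 (adjusted p = 0.0537).

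Among the nuclei protocols of the females, 1x2000g nuclei had Ier3 higher than 3x500g nuclei, at 63.9, 69.2 and 56.2 against 47.8, 51.9 and 35.3 CPM (0.47 ± 0.14, adjusted p = 0.0335), 1 of 6 members where 19.5% of all genes were higher. Sucrose nuclei had 3 of 7 members higher, against 23.9% of genes: Ier2 at 47.7, 48.0 and 31.1 against 21.3, 20.5 and 21.8 (0.99 ± 0.16, adjusted p = 0.00257), Egr1 at 45.5, 48.9 and 41.7 against 37.4, 31.7 and 28.0 (0.48 ± 0.12, adjusted p = 0.0148) and Ier3 at 52.7, 61.9 and 70.0 (0.45 ± 0.15, adjusted p = 0.0384). The Ier3 call of the 1x2000g nuclei was lost without 3x500g replicate 3 or 1x2000g replicate 1 or 2 (adjusted p = 0.0558 to 0.101), and in sucrose nuclei those of Ier3 (adjusted p = 0.0864 to 0.125) and Egr1 (adjusted p = 0.0510 to 0.0553) were lost without 3x500g replicate 3 or either of 2 sucrose replicates, 2 and 3 for Ier3 and 1 and 2 for Egr1. In all 3 genes the sucrose libraries lay above the 3x500g ones. Hemoglobin, at 42.7 to 54.9 CPM in sucrose and 58.6 to 172 in 1x2000g nuclei, was also above the 4.99 to 24.5 of 3x500g nuclei, and its part in these values was not tested.

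Values of log2(CPM + 1) were correlated over the 18 C57BL/6J 10x libraries, with 8252 genes compared. The 3 genes closest to Egr1, Nr4a1 and Ier2 were each another member or on the list of other immediate-early genes. The 3 closest to Ier3 were not on it, and those of Ier5 were so only in part. Pearson's r was 0.99 for Egr1 with Atf3 and with Fos, 0.97 for Nr4a1 with Ier2, 0.99 for Ier2 with Junb and with Ppp1r15a, 0.99 for Ier5 with Rgs2 and 0.98 for Ier3 with Ifrd1 and with Phlda1. Nr4a2 was set to 0 in 9 of the 18 libraries, so no gene is named for it. Between pairs of the other 5 members r ran from 0.83 to 0.97, lowest for Egr1 with Ier3. Egr1 was at 0 in 2 and Nr4a1 in 1 of these libraries. These values describe libraries that fall into 6 groups and share suspensions, so they carry no test.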

How the data were processed

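The series held 39 10x and 15 bulk libraries of mouse kidney in 18 groups of 3, taken from the labels. Per the authors' methods and processing notes, 10x reads were processed with Cell Ranger 2.1.1 and Seurat 2 on mm10 (GRCm38), and bulk reads were aligned with STAR 2.6.1a and counted with featureCounts. The deposited values were raw counts, of UMIs per gene and barcode or of reads per gene. Whether bulk counting used the strand was not given in the sources used here. UMIs were summed per library and per marker-gated class (at least 10 barcodes in 2 libraries of each group). The sums were tested with edgeR 4.0.16 (quasi-likelihood test, TMM, filterByExpr, R 4.3.3), with Benjamini-Hochberg adjustment over all genes of a fit and a threshold of 0.05; DESeq2 1.42.0 was an alternative, as were RLE normalization, no filter, a stricter gate of 3 markers, and each library left out. The scripts were tested on simulated data. Standard errors are the log2 fold change over the square root of F.

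In the file headers, stored and fresh C57BL/6J libraries of 1 number shared a suspension name and were read as aliquots of 1 suspension. Deviations of same-numbered libraries from their group means correlated at 0.323 to 0.552 between fresh and methanol-fixed, at -0.0737 to 0.186 between fresh and cryopreserved and at -0.135 to 0.256 between cold and warm libraries. The highest correlation with a library of another number was -0.228 to -0.0149, -0.0725 to 0.134 and -0.00497 to 0.331 in the same order. Between fresh and cryopreserved libraries the same number thus did not stand out. The p-values measure the spread between 3 samples. All 8 genes were looked up in every comparison. Those not named in 1 were not called there over whole libraries or could not be tested. Other genes came from lists, at most 2 of each by size of change, and the 3 most correlated genes of each member were determined. The members and lists were chosen with earlier results of these data known. Ier5l and Nr4a3 were named as relatives, and Egr4 was not tested. The depth of the libraries is given with the results; precision was set by the counts of a gene and by the spread between samples, which the standard errors carry.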

Additional observations from a re-analysis of the deposited data

Results flagged for a closer look

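A difference between groups under the same contrast, tested as an interaction with edgeR's quasi-likelihood test, was found for these results, all on the log2 scale. The warm-cold difference of Ier3 in the thick ascending limb was below that of the proximal tubule (-2.31 ± 0.37, adjusted p = 5.41e-05), which is no independent evidence, since its direction was known from these data when the test was chosen. In principal cells that of Ier2 (1.86 ± 0.41, adjusted p = 0.00151) and of Ier3 (2.30 ± 0.46, adjusted p = 0.000304) was above it.

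The term of cryopreservation by dissociation in C57BL/6J cells, warm against cold, was called over whole libraries for Ier5 (-1.40 ± 0.23), Ier2 (-1.37 ± 0.30), Ier3 (1.07 ± 0.25) and Egr1 (-3.27 ± 0.57, with 1 library set to 0). In macrophages it was called for Ier5 (-1.83 ± 0.32), Ier2 (-1.51 ± 0.36) and Egr1 (-4.71 ± 0.57), and in the monocyte gate, whose label its held-out markers did not bear out, for Ier5 (-2.87 ± 0.50), Ier2 (-2.55 ± 0.58) and Egr1 (-9.77 ± 1.58). In T cells it was called for Egr1 (-6.45 ± 1.28) and in B cells for Ier2 (-1.96 ± 0.36, adjusted p = 0.00418). Every Egr1 value takes 1 cold fresh library set to 0 as a count and is no bound. The whole-library alternatives of Egr1 ran from -4.60 to -2.80, and 15 of 16 were called. Nr4a2 was also called over whole libraries (-5.71 ± 0.71), but all 3 of its cold fresh libraries were set to 0. Its value is set by these zeros, and no dependence on dissociation is read from it. No whole-library call held with the suspension number as a block.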

How the results depend on the processing

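Over the single-gene results, 3855 alternatives were run, of which 3625 kept direction and side of the threshold, 157 lost the call, 70 gained one and 3 reversed. The reversals came with filtered values set to 9 UMIs, an alternative added after seeing the data: Nr4a2 in warm methanol-fixed libraries (0.024) and Nr4a2 (-0.90) and Nr4a1 (-0.80) in male nuclei, where the zeros set the fitted values. Restricting to genes kept in every library compared, also added later, left 3 members called warm against cold in fresh 10x libraries, with 18 class pairs, 3 for cold cryopreservation, with 13 pairs, 1 for male nuclei, 3 for storage by dissociation and 5 class pairs there; fewer members could be tested. With no low-count filter there were 31 class pairs for cold cryopreservation, 1 member for warm methanol, 6 class pairs for male nuclei and 13 for storage by dissociation. The stricter gate gave 8 class pairs for warm cryopreservation, 0 for warm methanol and 5 for storage by dissociation. The replicate block, added after the headers were read, gave 2 class pairs for cold methanol and 0 members for storage by dissociation; other calls it changed stand beside the results, and it moved no other count of calls by over 1.5 times. Cold and warm libraries of 1 number were separate suspensions that shared a number in the file headers. The labels and headers do not say whether they came from 1 mouse, and the correlation of their deviations cannot settle it. With the number as a block, Ier2 was called in the distal convoluted and connecting tubule (2.30, adjusted p = 0.00061). The 3 other alternatives given beside that result called it too. A fold change of at least 2 in addition left 1 member for warm methanol, 0 for 1x2000g and 0 for sucrose nuclei. The causes were not tested.

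With 1 library left out, the number of members called ran from 0 to 1 for intact against suspension, 0 to 2 for warm methanol (0 without any 1 warm fresh library), 0 to 4 for male nuclei (0 without nuclei replicate 1 or 3, 1 without replicate 2), 0 to 2 for 1x2000g nuclei (0 without 3x500g replicate 3 or 1x2000g replicate 1, 2 without 1x2000g replicate 2), 1 to 5 for sucrose nuclei (1 without 3x500g replicate 3 or sucrose replicate 2, 5 without 3x500g replicate 1) and 3 to 6 for storage by dissociation (3 without cold fresh replicate 3, warm fresh replicate 1 or cold cryopreserved replicate 1). Class pairs called ran from 1 to 2 for cold methanol, 0 to 4 for warm methanol and 2 to 5 for male nuclei. The monocyte gate could not be fitted under the stricter gate in 5 comparisons. Depth limits Ier3 in the thick ascending limb, with 13 to 44 UMIs in a fresh C57BL/6J library and fewer in some stored ones.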

Other observations

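Over the 3 intact kidneys of Balb/c females Egr1 ran from 3.76 to 58.5 CPM and Nr4a1 from 3.15 to 24.5 CPM, and over the cold bulk suspensions from 5.19 to 52.8 and from 5.78 to 28.4 CPM. In the 3 fresh 10x libraries of the same strain and sex Egr1 ran from 5.53 to 23.4 CPM. Ier5 stayed within 22.3 to 28.0 CPM in the 6 bulk libraries.

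Egr2 had counts above the filter in 6 10x libraries: at 9.59 CPM in warm cryopreserved replicate 2, at 2.01 in warm fresh replicate 2, and at 0.362 to 0.534 in 4 libraries of female nuclei.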
